A study of Mus musculus with 2 samples.

Results

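The intervals of open chromatin nearest to 9 genes of the SoxE family and the oligodendrocyte lineage (Sox8, Sox9, Sox10, Pdgfra, Cspg4, Mbp, Mog, Myrf and Zfp488) were described in live-cell ATAC-seq. An interval belonged to a gene if the closest start of a protein-coding transcript in the mouse genome (mm10, GENCODE) was one of that gene's starts. This gave 151 of 119502 intervals, of which 9 overlapped a start (TSS intervals) and 142 did not (distal intervals). ATAC-seq marks open chromatin by the insertion of adapters by the transposase Tn5. The cells were neural progenitors (NPs) made from the mouse embryonic stem cell line Olig2-mKate2, in which a red fluorescent protein reports Olig2, and mKate2-positive cells were sorted at day 5. Differentiation passed through bFGF and the Wnt secretion inhibitor LGK, then bFGF with CHIR99021, SB-431542 and DMH1, and ended with 100 nM retinoic acid and 100 nM SAG, an agonist of Shh signaling. There was 1 group with 2 replicates, so no condition was compared, and the labels do not say whether the replicates were separate cultures. Because the sort follows a reporter in 1 cell line, the cells may include others beside motor neuron progenitors (pMN). The authors state that the sorted cells include newly formed motor neurons and some cells positive for both OLIG2 and NKX2.2.

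The SoxE transcription factors bind DNA through an HMG domain and share much of their DNA-binding specificity. Sox9 is used early in the neural tube when progenitors gain the capacity to form glia, and Sox10, with Sox8, is used in oligodendrocyte precursors and in differentiating oligodendrocytes, while Sox10 is also a gene of neural crest. Precursors that come from the pMN domain carry the growth factor receptor Pdgfra and the proteoglycan NG2, encoded by Cspg4. Myrf and Zfp488 encode transcription factors of oligodendrocyte differentiation, and Mbp and Mog encode proteins of myelin.

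The 6 sequences below are shown because they sit at the centre of the most accessible distal interval of Sox8, Sox9, Pdgfra, Cspg4, Mog and Myrf, which carry the distal results. Each is 300 bases of the mouse reference GRCm38 (mm10), 5′ to 3′ on the plus strand. Capitals mark matches on either strand to the SOX words ACAAAG and ACAATG, to the E-box CANNTG, where N is any base, and to the homeodomain word TAATTA. The window of Cspg4 overlaps a coding exon of that gene and the window of Sox8 lies in an intron of the long noncoding RNA gene AC131323.3, whereas the other 4 are intergenic.
Sox8 (chr17:25556316-25556615, plus strand): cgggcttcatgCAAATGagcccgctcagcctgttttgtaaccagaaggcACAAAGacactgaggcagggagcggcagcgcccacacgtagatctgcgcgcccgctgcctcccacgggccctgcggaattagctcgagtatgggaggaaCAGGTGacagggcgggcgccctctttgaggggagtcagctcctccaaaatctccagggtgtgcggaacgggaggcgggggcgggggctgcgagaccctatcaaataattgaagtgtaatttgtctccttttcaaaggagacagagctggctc
Sox9 (chr11:112501877-112502176, plus strand): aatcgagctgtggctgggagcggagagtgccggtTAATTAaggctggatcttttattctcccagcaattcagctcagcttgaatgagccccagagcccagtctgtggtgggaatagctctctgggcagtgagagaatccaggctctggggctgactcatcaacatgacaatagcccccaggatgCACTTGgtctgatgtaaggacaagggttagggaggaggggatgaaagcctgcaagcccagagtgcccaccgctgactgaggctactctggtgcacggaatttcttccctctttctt
Pdgfra (chr5:75218726-75219025, plus strand): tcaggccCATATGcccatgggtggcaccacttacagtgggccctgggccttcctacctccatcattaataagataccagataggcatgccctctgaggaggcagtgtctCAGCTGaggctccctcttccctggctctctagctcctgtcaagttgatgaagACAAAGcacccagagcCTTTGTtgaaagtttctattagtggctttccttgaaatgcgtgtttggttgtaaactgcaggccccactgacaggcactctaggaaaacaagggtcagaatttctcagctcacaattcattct
Cspg4 (chr9:56889933-56890232, plus strand): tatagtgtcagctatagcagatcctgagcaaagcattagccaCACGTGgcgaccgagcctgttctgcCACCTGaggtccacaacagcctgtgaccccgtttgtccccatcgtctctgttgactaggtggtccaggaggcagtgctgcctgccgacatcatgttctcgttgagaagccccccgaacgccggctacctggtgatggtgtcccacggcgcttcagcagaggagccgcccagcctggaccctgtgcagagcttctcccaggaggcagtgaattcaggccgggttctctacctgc
Mog (chr17:37028639-37028938, plus strand): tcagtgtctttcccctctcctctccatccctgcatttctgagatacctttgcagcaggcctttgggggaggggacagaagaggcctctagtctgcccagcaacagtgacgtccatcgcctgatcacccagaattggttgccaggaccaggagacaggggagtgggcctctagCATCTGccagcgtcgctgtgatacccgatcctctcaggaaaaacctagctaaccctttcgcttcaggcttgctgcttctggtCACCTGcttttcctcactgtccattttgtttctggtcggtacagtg
Myrf (chr19:10243074-10243373, plus strand): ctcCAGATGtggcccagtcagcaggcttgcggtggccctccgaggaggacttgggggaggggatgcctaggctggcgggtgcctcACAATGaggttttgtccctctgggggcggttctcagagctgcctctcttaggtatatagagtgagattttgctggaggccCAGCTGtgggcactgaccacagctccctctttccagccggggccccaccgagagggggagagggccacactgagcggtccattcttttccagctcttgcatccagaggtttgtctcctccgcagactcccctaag
The Sox9 window, at the most accessible distal interval of all 142, held 0 SOX words, 1 E-box and 1 TAATTA. The Pdgfra window held 2 ACAAAG words and 2 E-boxes, and the Mog window held 2 E-boxes and 0 SOX words. A match is a run of letters and was not tested as a binding site.

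The next 5 sequences show how the promoters differed in CpG content, which is described further on. Each holds the 150 bases before the most upstream protein-coding start, on the strand of the gene, with CpG dinucleotides in capitals.
Sox8 (chr17:25570687-25570836, minus strand): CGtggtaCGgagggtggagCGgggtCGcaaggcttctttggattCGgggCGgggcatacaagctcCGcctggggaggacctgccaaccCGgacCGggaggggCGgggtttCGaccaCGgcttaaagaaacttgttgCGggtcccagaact
Sox9 (chr11:112782074-112782223, plus strand): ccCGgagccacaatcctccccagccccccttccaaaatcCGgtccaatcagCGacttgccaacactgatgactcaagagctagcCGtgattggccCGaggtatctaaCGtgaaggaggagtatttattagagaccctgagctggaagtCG
Myrf (chr19:10240749-10240898, minus strand): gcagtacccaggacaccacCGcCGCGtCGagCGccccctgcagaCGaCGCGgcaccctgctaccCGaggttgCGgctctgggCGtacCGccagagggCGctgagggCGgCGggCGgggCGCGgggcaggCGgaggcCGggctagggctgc
Sox10 (chr15:79165241-79165390, minus strand): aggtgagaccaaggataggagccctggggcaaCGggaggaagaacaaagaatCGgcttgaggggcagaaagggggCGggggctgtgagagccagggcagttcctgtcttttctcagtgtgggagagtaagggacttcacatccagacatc
Mog (chr17:37023399-37023548, minus strand): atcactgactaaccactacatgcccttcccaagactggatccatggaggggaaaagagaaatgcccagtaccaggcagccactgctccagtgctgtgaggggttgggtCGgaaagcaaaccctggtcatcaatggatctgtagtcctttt
These stretches held 13 CpGs at Sox8, 7 at Sox9 and 20 at Myrf, against 3 at Sox10, where this start was in no interval, and 1 at Mog. The same stretches of Zfp488, Cspg4 and Pdgfra, not shown, held 11, 8 and 1. The Pdgfra start, like that of Sox10, was in no interval, and its promoter density comes from later starts. Promoter accessibility, given below, did not follow these counts at Zfp488 and Cspg4.

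The libraries held 31876165 and 31672240 counts, of which the 151 intervals took 0.0825% in replicate 1 and 0.0851% in replicate 2. To check the label of the cells, the promoter density of marker lists was examined. Promoter density is the summed normalised count of the intervals over a gene's starts divided by their length in kb, and it is 0 where a gene has no such interval. All 4 pMN progenitor genes listed were above the median of 487 over 21938 protein-coding genes, including Olig2 at 946 ± 23.2 (SD, n = 2). Of 6 motor neuron genes 4 were above the median, and the list ranged from 231 to 1087. Fibroblast and mural cell genes were listed because such cells also use Pdgfra and Cspg4. Of these 8, 5 (62.5%) had a TSS interval, against 66.7% of all protein-coding genes, and 0 were above the median. Col1a1, Col3a1 and Lum were without a TSS interval. The stem cells had been grown on fibroblast feeders, which were removed by plating before differentiation, and the sort kept only cells with the reporter. All 7 neural crest and Schwann cell genes had a TSS interval and 5 were above the median, from Foxd3 at 379 to Ets1 at 1665. Of 6 astrocyte and radial glia genes 3 had a TSS interval and 1 was above the median. The share above the median was 71.4% for the neural crest and Schwann cell list and 66.7% for the motor neuron list. These lists therefore could not tell such cells apart, and Olig2 is the gene that the sort followed. The part of other cells in the values below was not tested.

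Promoter accessibility separated the 9 genes over a wide range. Sox8, Pdgfra, Myrf, Sox9 and Mbp were above the median of all genes, Zfp488, Cspg4 and Sox10 were below it, and Mog had no interval over a start. In bulk libraries, few cells with an open promoter and a promoter that is weakly open in many cells cannot be told apart. The 2 replicates overlapped between neighbours in this order only for Pdgfra and Myrf, which differed by 3.33 normalised counts per kb. Cspg4 and Sox10 differed by 14.2, from only 45 and 46 counts at Cspg4, and their order changed by counts per interval. Across all protein-coding genes 66.7% had a TSS interval, against 8 of the 9.

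**Figure D1:**
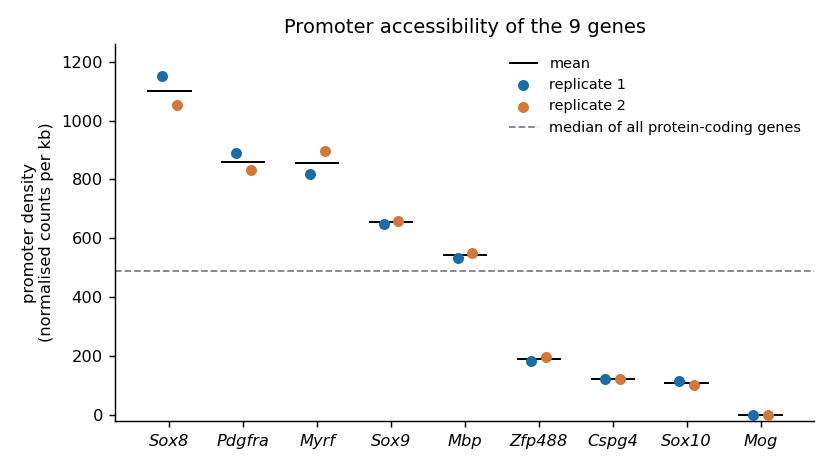
Promoter density (normalised counts per kb) of the 9 genes in replicate 1 (blue) and replicate 2 (orange), with bars at the mean and a dashed line at the median of all protein-coding genes (487). Sox8 was highest at 1102, Sox10 was at 108 and Mog was at 0.

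The 3 SoxE promoters were the first members compared. Sox8 (ENSMUSG00000024176.10, chr17:25565892-25570686) had a promoter density of 1151 in replicate 1 and 1052 in replicate 2, above 77.4% of genes. Its TSS interval also held the start of the noncoding gene 2810468N07Rik, so the counts of both starts cannot be told apart. Sox9 (ENSMUSG00000000567.5, chr11:112782224-112787760) had 650 and 659, above 57.4% of genes, in an interval of 2869 bp that also held the start of the noncoding gene BC006965. Sox10 (ENSMUSG00000033006.10, chr15:79154908-79165240) had 114 and 102, above 36.0% of genes. Both replicates thus placed Sox8 highest and Sox10 lowest by density. Sox8 was 10.2 ± 0.180-fold (SD, n = 2) and Sox9 6.10 ± 0.553-fold above Sox10, and Sox8 was 1.68 ± 0.123-fold above Sox9. The order of Sox8 and Sox9 depended on the unit. The TSS interval of Sox9 held 1864 and 1892 counts and that of Sox8 held 1920 and 1757, so by counts per interval the replicates overlapped, and Sox9 was above 84.1% of genes against 83.3% for Sox8. Sox10 stayed the lowest of the 3, above 38.1% of genes. The TSS interval of Sox10 covered 2 of its 3 annotated starts, and the most upstream start, at position 79165240, was in no interval.

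Sox9 held 74 of the 151 intervals, more than 99.9% of genes, where the median gene had 3. Of these, 26 had a mean normalised count over 100. They extended from 855 kb upstream to 390 kb downstream, with 36 distal intervals on the upstream side and 37 on the downstream side. The territory nearest to the Sox9 start spans 1249.8 kb, so the number of intervals was 59.2 per Mb, against 43.8 per Mb over the genome and a median of 72.8 per Mb over genes with an interval. The nearest start of any annotated gene type was that of another gene for 72 of the 74, among them 18 nearest to BC006965, and 11 nearest to the long noncoding RNA gene Gm11680.

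A few elements took much of the distal signal around Sox9. The most accessible was chr11:112501789-112502264, an intergenic interval of 476 bp located 280 kb upstream, with 2257 normalised counts per kb in replicate 1 and 2446 in replicate 2. Both replicates were over 3 times the density of the Sox9 promoter, and the mean of 2352 was above 99.9% of all distal intervals and 97.6% of all TSS intervals. By counts per interval this order was reversed, with 1074 and 1165 counts here against 1864 and 1892 in the longer TSS interval. The second, chr11:112137391-112138193, lies 644 kb upstream and had 861 and 880. The next, chr11:112784958-112785493, covers coding sequence of Sox9 itself and had 730 and 731. On the downstream side, chr11:112810783-112811936 at 28.6 kb had 606 and 675, and chr11:112869969-112871140 at 87.7 kb had 569 and 641. These 5 intervals held 38.1% of the distal counts of Sox9. By density the typical element was somewhat below that of the table on both sides, with a median of 111 upstream and 98.4 downstream, against 123 for all distal intervals. By count, 25 of the 73 distal intervals of Sox9 were over 100 normalised counts, against 31.2% of all distal intervals. The farthest interval over 100 normalised counts, chr11:111967647-111968142, lies 814 kb upstream with 230 and 248.

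**Figure D2:**
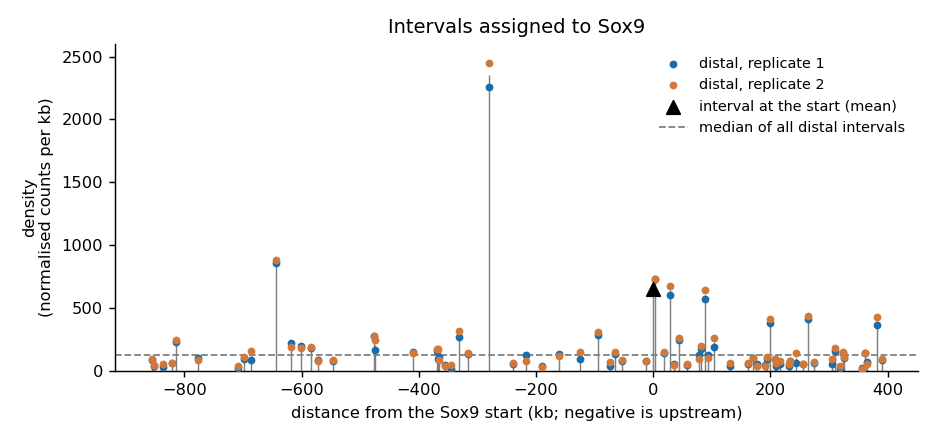
Density (normalised counts per kb) of the intervals assigned to Sox9 against the distance from its start in kb, with negative values upstream, points for each replicate, stems at the mean, and a triangle for the interval at the start. By density, the interval 280 kb upstream (mean 2352) stands above the promoter (655) and above the dashed median of all distal intervals (123).

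Sox8 and Sox10 had few intervals, 4 and 5. The most accessible distal interval of Sox8, chr17:25555718-25557213, lies 13.0 kb downstream and had 350 and 317 normalised counts per kb, and the next, chr17:25561395-25562329, lies 7.89 kb downstream and had 277 and 291. The 4 distal intervals of Sox10 ranged from 117 to 199, and the highest of them, chr15:79155134-79156504 over coding sequence of Sox10, had 189 and 209. All 4 were above the mean promoter density of 108, although replicate 1 of the promoter (114) was above replicate 1 of one of them (109). By density the start of Sox10 was therefore no more accessible than the distal intervals around it, whereas the start of Sox8 exceeded each of its distal intervals in both replicates. This too depended on the unit. By mean normalised count per interval, the TSS interval of Sox10 (168) was below only the highest of its distal intervals (272).

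Among the other transcription factors, Myrf had an open promoter and Zfp488 a weak one. Myrf (ENSMUSG00000036098.15, chr19:10208272-10240748), a membrane-bound factor that activates myelin genes, had a promoter density of 818 and 897. An intergenic interval 2.20 kb upstream, chr19:10242947-10243499, was nearly as accessible, with 780 and 765, and chr19:10224681-10225480 over a coding exon of Myrf had 569 and 549. Of its 10 intervals 6 were over 100 normalised counts. In 4 of the 10 the nearest start of any type was that of Dagla, a lipase gene next to Myrf. Zfp488 (ENSMUSG00000044519.8, chr14:33967070-33978764), a zinc finger repressor, had only 2 intervals. Its promoter density was 184 and 198 from 63 and 68 counts, and its intronic interval, chr14:33975825-33975977, had 118 and 170.

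The precursor surface genes Pdgfra and Cspg4 showed opposite arrangements of promoter and distal signal. Pdgfra (ENSMUSG00000029231.15, chr5:75152292-75198215), the receptor for platelet-derived growth factor A, had a promoter density of 888 and 832, all of it from chr5:75155743-75157278, which covers 2 of its 7 starts. The most upstream starts, from position 75152292, were in no interval, although chr5:75153102-75153582, only 0.167 kb from a start, had 491 and 451. Downstream of the gene, chr5:75218603-75219147 had 538 and 548 and chr5:75222517-75223525 had 527 and 545, at 56.8 and 60.7 kb from the nearest start of Pdgfra. Cspg4 (ENSMUSG00000032911.6, chr9:56865033-56899870) had 121 and 123 at its start from 45 and 46 counts. Its distal intervals were higher in both replicates, with 531 and 504 at chr9:56889820-56890345 in a coding exon and 441 and 383 at chr9:56891338-56891963. Fibroblast and mural cell genes, which share these markers, had a median promoter density of 186.

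The myelin gene Mbp was far more accessible at its upstream starts than at the downstream ones, where an interval was called but was weak. Mbp (ENSMUSG00000041607.17, chr18:82475146-82585637) has long transcripts that begin upstream, known as Golli, and the classic myelin transcripts begin at starts 79.3 kb downstream. The interval over the upstream starts, chr18:82474741-82476107, had 812 and 831 normalised counts per kb. The interval over the downstream starts, chr18:82554206-82555046, had 80.9 and 95.1 from 68 and 80 counts, a mean above only 4.18% of all TSS intervals. The upstream interval was 9.39 ± 0.924-fold (SD, n = 2) higher, and a single promoter value of 542 for Mbp joins both. Mbp held 35 intervals, or 192 per Mb, but only 5 (14.3%) were over 100 normalised counts, against 38.8% of all intervals. In 14 of the 35 the nearest start of any type was that of another gene, most often the pseudogene Rpl21-ps8 (8). The highest distal interval, chr18:82555783-82556107, lies just past the downstream starts and had 283 and 338.

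**Figure D3:**
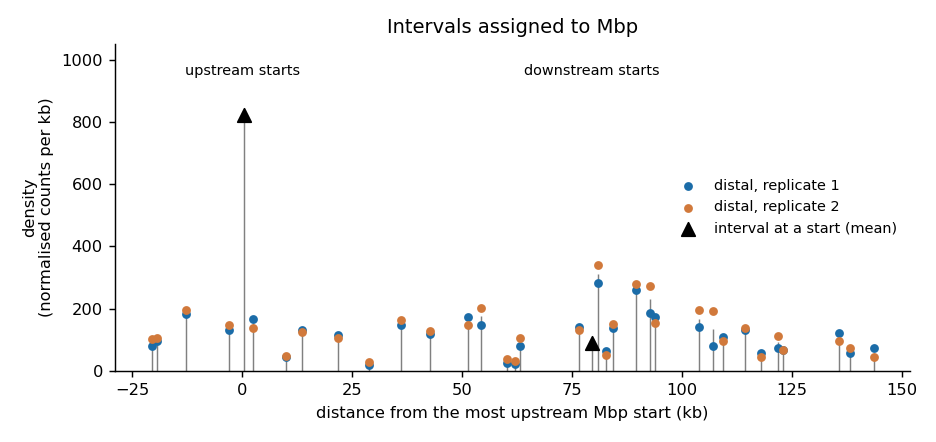
Density (normalised counts per kb) of the intervals assigned to Mbp against the distance in kb from its most upstream start, with points for each replicate, stems at the mean and triangles at the TSS intervals. The triangle at the upstream starts is at 822 and the triangle at the downstream starts, 79.3 kb away, is at 88.0.

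Mog (ENSMUSG00000076439.12, chr17:37010743-37023398), a glycoprotein on the outer face of myelin, had no interval over either of its starts. Intervals exist only where a peak was called, so the value of 0 is not a count of 0 fragments. One of its 2 intervals was among the most accessible distal intervals of the table. This interval, chr17:37028366-37029210, is intergenic, lies 4.97 kb upstream and had 1673 and 1622 counts, or 1981 and 1919 normalised counts per kb. Its mean of 1950 was above 99.8% of distal intervals and 93.9% of TSS intervals. It held no annotated gene start of any type.

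Taken over all 9 genes, the distal intervals were close to the rest of the table. Their median density was 116 against 123 for all distal intervals, and 14 of 142 (9.86%) were above the 90th percentile of all distal intervals, namely 6 of Sox9, 3 of Pdgfra, 2 each of Cspg4 and Myrf and 1 of Mog. A mean normalised count over 100 was reached by 56 of the 151 intervals, or 37.1% (95% Wilson interval 29.8 to 45.0), against 38.8% of all intervals. Outside Sox9 the share was 30 of 77 (39.0%). These shares mix TSS and distal intervals. Among distal intervals alone it was 50 of 142 (35.2%), against 31.2% of all distal intervals. Among TSS intervals it was 6 of 9, against 92.5% of all TSS intervals. The TSS intervals had a median of 655 against 799 for all TSS intervals. The ratio of TSS to distal medians was 5.54 in replicate 1 and 5.48 in replicate 2, with a mean of 5.51 ± 0.0387 (SD, n = 2), against 6.43 over all intervals. Distal intervals lay farther from their start, with a median of 58.2 kb against 33.6 kb, and 60 of the 142 were over 100 kb away, of which 58 belonged to Sox9 and 2 to Pdgfra. By position, 74 were intergenic, 48 in introns, 11 over coding exons, 4 over UTRs and 5 over noncoding exons.

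**Figure D4:**
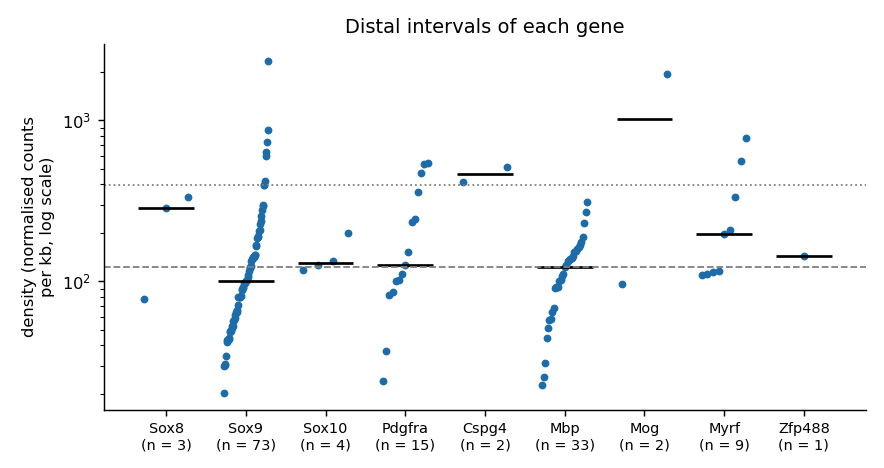
Mean density (normalised counts per kb, log scale) of each distal interval by gene, sorted within a gene, with black bars at the gene's median. The dashed line is the median (123) and the dotted line the 90th percentile (398) of all distal intervals, and the points at 2352 and 1950 belong to Sox9 and Mog.

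Over all distal intervals of the 9 genes, the words of SOX, bHLH and homeodomain factors were about as frequent as elsewhere. In the central 300 bases of the 142 distal intervals, searched on both strands, ACAAAG was present in 31.7% against 33.9% of all distal intervals, and ACAATG in 23.2% against 23.5%. A facing pair of the SOX word start ACAA, with its complement after a gap of 3 to 10 bases, was found in 7.04% against 5.85%. The E-box CANNTG was found in 78.2% against 82.8%, and its forms, which overlap it, in 27.5% against 29.2% for CAGATG, 21.8% against 22.9% for CAGCTG and 4.93% against 5.63% for CATATG. The homeodomain word TAATTA was present in 10.6% (95% Wilson interval 6.51 to 16.7) against 7.79%, the GC box GGGCGG in 12.0% against 8.72% and the GLI word TGGGTGGTC in 0.704% against 0.497%. The core motif of CTCF, added after the data were seen, was found in 4.23% against 2.82%. For all 11 motifs the share over all distal intervals lay within the Wilson interval of the members.

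Promoters of other genes of the lineage were examined by list, beside the 66.7% of all protein-coding genes with a TSS interval. Of 10 further transcription factors, all had a TSS interval and 7 were above the median of all genes, with a median of 673 and a range from 431 (Zeb2) to 946 (Olig2). Of 7 precursor genes, 6 had a TSS interval and 4 were above the median, led by the proteoglycan Vcan at 981 and the phosphatase Ptprz1 at 897 normalised counts per kb, whereas Bcas1 had none. Of 12 myelin and mature oligodendrocyte genes, 8 (66.7%) had a TSS interval and 6 were above the median of all genes, with a list median of 398. Mag, which encodes a glycoprotein of myelin, Opalin, Aspa and Enpp6 were without one. In the same list, Fa2h, an enzyme for hydroxylated myelin lipids, had 2326 and 2426. These are counts beside those of all genes and no list was tested.

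The promoter order went with CpG content only in part, a comparison added after the values had been seen. The ratio of observed to expected CpG was taken over 1 kb around the most upstream start of each gene. It was at least 0.6 for 4 members, namely Sox9 (0.796), Myrf (0.730), Sox8 (0.687) and Mbp, the last just at the limit, and their promoter densities were 542 to 1102. From Sox9 to Myrf to Sox8 the density rose as the ratio fell, with 655, 857 and 1102. The 542 of Mbp joins its upstream and downstream starts. Its ratio was taken at the upstream starts alone, where the density was 822. It was under 0.6 for 5 members, namely Zfp488 (0.497), Pdgfra (0.397), Cspg4 (0.365), Sox10 (0.166) and Mog (0.147). In this group the densities were 191, 860, 122, 108 and 0. Pdgfra stood apart in this group, but its ratio was taken at a start in no interval. The TSS intervals of Pdgfra and Sox10 cover later starts than the one measured, where the ratio was 0.574 and 0.602 for Pdgfra and 0.326 and 0.337 for Sox10. At the Pdgfra starts in no interval it ranged from 0.191 (position 75161834) to 0.965 (position 75152935), so the class of Pdgfra depended on the start. At the downstream starts of Mbp, which had the low density, the ratio was 0.457. Over all protein-coding genes, 98.4% of those at 0.6 or more had a TSS interval, with a median density of 982, against 39.6% of those under 0.6, whose median was 0.

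**Figure D5:**
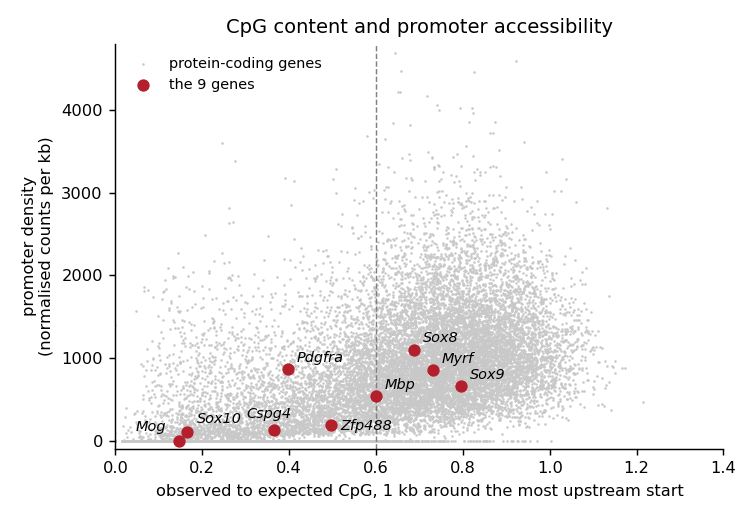
Promoter density (normalised counts per kb) against the ratio of observed to expected CpG in 1 kb around the most upstream start, for protein-coding genes (grey) and the 9 genes (red), with a dashed line at 0.6. Sox10 and Mog lie at low CpG and low density. Pdgfra has a density of 860, and its low ratio was taken at a start in no interval.

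Finally, the replicates were compared at each interval. In a two-sided exact binomial test with Benjamini-Hochberg adjustment over all 119502 intervals, 0 of the 151 were called different at an adjusted p under 0.01, as were 0% of all intervals, and with edgeR TMM factors 0 of the 151 and 6 of all intervals were. At an unadjusted p under 0.05 there were 16 of 151 (10.6%, 95% Wilson interval 6.63 to 16.5), against 8.39% of all intervals. The test sets the difference between 2 libraries against counting error and compares no conditions. Among intervals over 100 normalised counts the largest differences on the log2 scale (replicate 2 over replicate 1, with 1 added to each) were 0.42 at chr11:112885353-112885922 of Sox9, 0.26 at chr11:112449695-112450632 of Sox9 and 0.25 at chr18:82555783-82556107 of Mbp.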

How the data were processed

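Live-cell ATAC-seq libraries of mKate2-positive cells (2 replicates, 1 group) were analysed. The values deposited by the authors are raw counts of fragments in consensus intervals of mm10, which they made with the nf-core atacseq pipeline and MACS peaks. The file header names featureCounts 2.0.1 with paired fragments, each counted in every interval it overlapped by a fraction of at least 0.2. Intervals were defined over 5 libraries, and the 3 columns of other samples were not used. A fragment can thus count more than once, and weak sites are listed only if a peak was called.

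For normalised counts, size factors of DESeq2 (1.42.0) were applied, and densities are per kb of interval. Starts came from GENCODE M21 and sequences from the RefSeq copy of GRCm38, read with pysam 0.24.0. Genes were ranked by promoter density, with those on the mitochondrial genome left out. Libraries were compared by an exact binomial test (scipy 1.17.1), which was tested on simulated counts. The 9 genes, the lists and the tests were chosen with earlier results of these data known. Some items of the myelin list are not reported here, and its counts and median leave them out. Named intervals were those over each gene's starts, each gene's highest distal interval, the 10 highest distal intervals, the farthest over 100 normalised counts and the 3 largest differences; other intervals were named after their values were seen. No sequence was shown where a window overlapped a UTR. The Wilson intervals on shares treat the intervals of open chromatin as independent and cover no other error, although 51.4% of the distal ones belong to Sox9. Fragments carried no molecular identifiers. Alternatives were edgeR (4.0.16) TMM or total counts, a minimum mean of 10, other definitions of starts and distances, counts per interval, windows of 200 bases, and leaving out each replicate.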

Additional observations from a re-analysis of the deposited data

How the results depend on the processing

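The definition of a start mattered most. With starts of all gene types in place of protein-coding ones, 43 intervals in place of 151 were assigned to the 9 genes, and Sox9 kept 2 in place of 74. With 1 start per protein-coding gene, 6 genes in place of 8 had a TSS interval, and Sox10 and Pdgfra were then listed at 0. When TSS intervals were those within 1 kb of a start, the ratio of TSS to distal density at these loci was 3.07, and by counts per interval it was 11.5, in place of 5.51. Without either replicate it ranged from 5.48 to 5.54. The share of intervals over 100 normalised counts was 36.4% with total counts and 38.9% among intervals with a mean of at least 10, in place of 37.1%, and it ranged from 36.4 to 37.1% without either replicate. The promoter density of each gene moved by no more than the spread between replicates under TMM or total counts, whose factors lay close to those of DESeq2. Leaving out 1 of 2 replicates returns the value of the other. Its shift is therefore set by their spread and gives no further check. By counts per interval the percentile moved for 8 of the 9 genes and their order changed: Sox9 (84.1) stood above Sox8 (83.3), and Myrf (50.2) fell below Pdgfra (70.6) and Mbp (67.0). Sox10 (38.1) then stood above Zfp488 (35.6) and Cspg4 (34.9). No paired analysis was possible because the labels gave 1 group. The 2 replicates give a mean and a range only, and at low intervals, such as those of Zfp488 and Cspg4, counting error limits the density.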

Other observations

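Outside the rule for named intervals, chr11:112094991-112095686, an intergenic interval 687 kb upstream of Sox9, was chosen after its values were seen because it had the smallest p of the 151. It held 58 counts in replicate 1 and 111 in replicate 2, and the exact binomial test gave p = 5.56e-05 and an adjusted p of 0.102 over all intervals, so it was not called.

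Sox9 intervals lay among noncoding genes. By the nearest start of any annotated type, 17 of the 74 were nearest to 2610035D17Rik, 17 to 4933434M16Rik and 7 to Gm11679. Over the 9 genes, 108 of 151 intervals (71.5%) were nearest to the start of another gene, whereas all 3 intervals of Cspg4 and both of Zfp488 were nearest to their own.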
